A study of Cicer arietinum with 8 samples.

Results

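Roots of the salinity sensitive (SS) chickpea genotype ICCV2 were compared after salinity stress (SS-S) and under control conditions (SS-C). SS-S plants were 12 days old when 80 mM NaCl was first given, on alternating days over 6 days, SS-C plants were watered without salt, and roots of both were taken at an age of 18 days. Each group had 2 libraries of 49 bp single-end reads, and the authors deposited a single FPKM value for each locus in each group, combining both libraries. FPKM is a fragment count corrected for transcript length and for library size. The salt response was described over each locus with FPKM of at least 1 in SS-S or SS-C, which held for 20068 of the 30692 loci of the table. The same roots of the salinity tolerant (ST) genotype JG62, as ST-S with and ST-C without the same salt treatment, are given only beside SS values. Combined values hold no spread between libraries, so there is no SD, no test and no replicate check for any ratio below, and the depth behind each value is unknown.

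Salt reaches a plant first at the root, where it lowers the water available to the cell and brings in sodium that competes with potassium. Roots answer with abscisic acid signalling, with sodium and proton transporters, with compatible solutes such as proline and inositol derivatives, and with changes in growth. Salt also disturbs the uptake of other ions, among them phosphate and iron. The deposited table names loci by an assembly number (XLOC_) and, where the locus overlaps an annotated gene, by a Kabuli chickpea gene number (Ca_). It gives no gene function, and 0 of its identifiers were found in the chickpea RefSeq table at hand, so roles can be given only for genes whose homolog the study names. For the same reason the root label was not checked against root marker genes.

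Most loci of SS roots kept their FPKM within 1.5-fold under salt. The median log2 ratio of SS-S to SS-C was -0.02 where both groups reached FPKM 1 (19300 loci). FPKM is corrected for library size, so this centre cannot show whether total transcript levels changed. Of the 100 most abundant loci of SS-S, 90 were also among the 100 most abundant of SS-C. A locus is called raised or lowered here where the plain FPKM ratio was at least 1.5 in that direction, the fold limit the study used. By this rule 10.7% of the loci changed, of which 891 (4.44% of all) were raised and 1251 (6.23% of all) were lowered in SS-S. At a ratio of at least 2, 338 loci (1.68%) were raised and 534 (2.66%) lowered. Lowered loci outnumbered raised loci by either fold limit.

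The share of changed loci and the spread of ratios differed with the expression level. How much of this is count variation at low FPKM was not tested, as the depth is unknown. Among the 4017 loci whose higher FPKM lay between 1 and 5, 11.3% were raised and 16.3% lowered. A locus could enter this class through its higher group alone, which favours loci that differ. The shares were 3.96% and 5.21% for the 6866 loci between 5 and 20, 1.73% and 2.72% for the 6833 loci between 20 and 100, and 1.75% and 2.30% for the 2171 loci between 100 and 1000. The span from the 5th to the 95th percentile of the log2 ratio narrowed up to FPKM 100, with limits of -1.20 and 0.90 in the lowest class and of -0.43 and 0.35 between 20 and 100. The most abundant class stood apart from this order. Of the 181 loci at FPKM 1000 or more, 10 (5.52%) were raised and 3 (1.66%) lowered, and the median log2 ratio was 0.12, against -0.06 in the lowest class. The plot of ratios by level shows both the narrowing and the upward shift at the top.

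**Figure D1:**
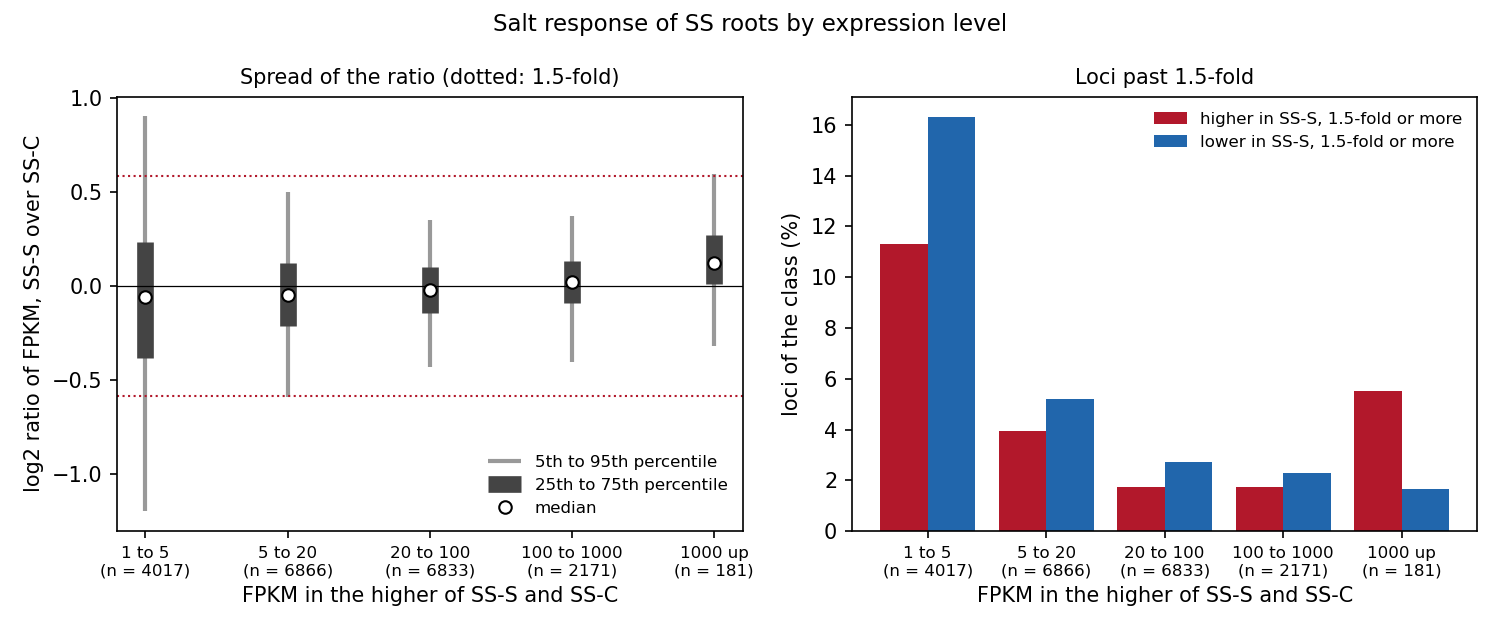
Salt response of SS roots by the higher FPKM of SS-S and SS-C. The left panel shows the median, the quartiles and the 5th to 95th percentiles of the log2 ratio of SS-S to SS-C for loci above 0 in both groups, and the right panel shows the percentage of loci raised and lowered at least 1.5-fold. The share of changed loci is highest between FPKM 1 and 5, and the median passes from -0.06 there to 0.12 at 1000 and above.

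Most changes were small. Of the raised loci, 553 had ratios of 1.5 to 2, 246 of 2 to 4, 37 of 4 to 8 and 12 of 8 or more, and 43 were listed at 0 in SS-C. Of the lowered loci, 717 had ratios of 1.5 to 2, 396 of 2 to 4, 64 of 4 to 8 and 21 of 8 or more, and 53 were listed at 0 in SS-S. The median of the higher FPKM was 6.38 among loci raised by 1.5 to 2, then 4.23, 4.26 and 4.42 in the next 3 fold classes, so it was lower past 2-fold but did not fall further. For lowered loci the medians were 5.44, 4.15, 3.40 and 3.86 in the same order. An FPKM of at least 5 in both groups left 287 raised loci (1.89% of 15173) and 373 lowered loci (2.46%). Some loci lay close to the 1.5-fold limit: Ca_01467 had FPKM 8.63 in SS-S and 5.75 in SS-C and counts as raised, whereas XLOC_004274, with 7.72 in SS-S and 5.15 in SS-C, does not. On the lowered side, Ca_12525 had 13.3 in SS-S and 20.0 in SS-C and falls just inside, and Ca_03999, with 11.8 in SS-S and 17.7 in SS-C, falls just outside.

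Some loci crossed the limit of FPKM 1, at which a locus was taken as expressed. Of the 20068 loci, 327 reached it in SS-S only and 441 in SS-C only. A ratio past 1.5-fold was seen for 224 of the 327 and 341 of the 441. The others lay on both sides of FPKM 1 at a smaller ratio. Over all 20068 loci, 4.44% were raised and 6.23% lowered. Lying on both sides of FPKM 1 by itself favours a large ratio, so the higher shares cannot be read on their own. Loci of both kinds were mostly faint transcripts, which an FPKM under 1 in the other group also favours. Their higher FPKM had a median of 1.33 for those in SS-S and 1.41 for those in SS-C, and it was at least 5 for 10 loci in SS-S and 16 in SS-C.

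The largest rises at FPKM of at least 5 were led by 3 genes that were nearly silent in control roots. Ca_17198 had FPKM 43.9 in SS-S and 0.237 in SS-C, a ratio of 185, while ST-S had 1.26 and ST-C 1.36. Ca_25510 had 10.8 in SS-S and 0.343 in SS-C, a ratio of 31.5, with 2.12 in ST-S and 0.515 in ST-C. Ca_24971 had 5.24 in SS-S and 0.308 in SS-C, a ratio of 17.0, against 1.76 in ST-S and 3.91 in ST-C. Only in SS-S was Ca_17198 above FPKM 1.5 among the 4 groups. The next locus, XLOC_006065, had 15.0 in SS-S and 1.07 in SS-C, and both ST groups lay between these values, at 9.16 in ST-S and 6.27 in ST-C. Of the 12 loci with the largest rises, 8 had no gene name and 8 were below FPKM 1 in SS-C. The exception in abundance was Ca_12424, with 89.1 in SS-S and 13.0 in SS-C, which had 234 in ST-S and 93.3 in ST-C. It was raised in both genotypes, and its SS-C value was the lowest of the 4 groups.

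The largest falls were led by Ca_23881. It had FPKM 0.396 in SS-S and 15.7 in SS-C, which is 39.7-fold lower, and 0 was listed for ST-S and ST-C. Ca_21085 had 2.81 in SS-S and 37.3 in SS-C, which is 13.3-fold lower, whereas ST roots kept 54.5 in ST-S and 69.8 in ST-C. Ca_24399 had 3.47 in SS-S and 36.2 in SS-C and was again listed at 0 in ST-S and ST-C. Of these 3 genes, Ca_21085 alone was expressed in the ST genotype, where it was not lowered at 1.5-fold. Among the loci without a gene name, XLOC_003409 had 1.86 in SS-S and 25.6 in SS-C, with 3.65 in ST-S and 4.92 in ST-C. XLOC_029374 had 1.93 in SS-S and 23.8 in SS-C, but 13.4 in ST-S and 7.18 in ST-C. XLOC_006577 had 1.18 in SS-S and 7.63 in SS-C, but 14.8 in ST-S and 5.06 in ST-C. The last pair was thus lowered in SS and raised in ST roots, a difference between genotypes that was not tested. Of the 12 loci with the largest falls, 6 had no gene name. In ST roots 9 of the 12 were open to a call, with FPKM of at least 1 in an ST group, and 4 were raised and 2 lowered. Of the 12 largest rises, 11 were open to a call in ST roots, and 5 were raised and 4 lowered there. Over all ST loci open to a call, 7.79% were raised and 5.63% lowered. The shares over all ST loci are not matched in level to these falls and rises. Of the 1124 lowered SS loci open to a call in ST, 17.5% were raised and 22.6% lowered there.

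**Figure D2:**
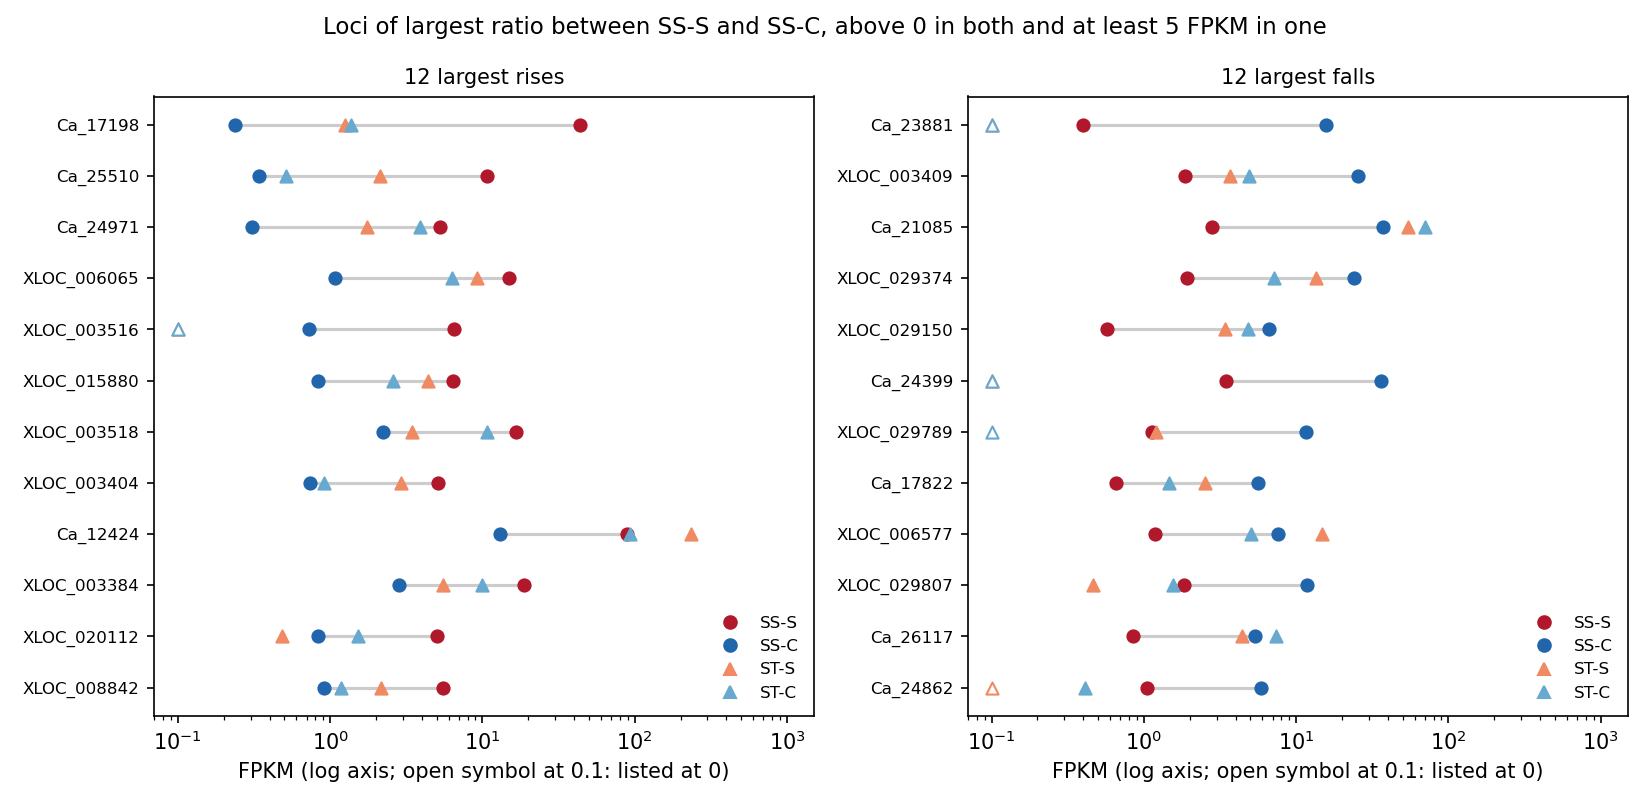
FPKM on a log axis of the 12 largest rises (left) and the 12 largest falls (right) between SS-S (red circles) and SS-C (blue circles), with ST-S (orange triangles) and ST-C (light blue triangles) of the same loci. Grey lines join the SS groups, and open symbols mark values listed at 0. Ca_17198 spans the widest ratio, 43.9 in SS-S against 0.237 in SS-C, and its ST values of 1.26 and 1.36 lie close together.

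Loci listed at 0 in one SS group allow no ratio. With FPKM of at least 5 in the other group 2 loci were listed at 0 in SS-C and 12 in SS-S. XLOC_020082 and Ca_12549 had FPKM 9.86 and 6.99 in SS-S, a listed 0 in SS-C and a listed 0 in ST-S and ST-C, so among the 4 groups they were listed above 0 in SS-S alone. The 6 most abundant of the other kind were all expressed in ST roots. XLOC_000008 was listed at 0 in SS-S and had 1295 in SS-C, with 1582 in ST-S and 169 in ST-C. Ca_26720 was listed at 0 in SS-S and had 32.2 in SS-C, with 7.71 in ST-S and 6.37 in ST-C. Ca_05851 was listed at 0 in SS-S and had 13.0 in SS-C, with 21.6 in ST-S and 8.12 in ST-C. These genes were thus missing from the stressed SS column alone. XLOC_003306, XLOC_003487 and Ca_05003 had 13.7, 11.7 and 7.84 in SS-C. A listed 0 can also be a failed estimate, which was not tested.

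At FPKM of at least 5 in both SS groups the changes were smaller and rested on more abundant transcripts. This minimum by itself leaves out faint transcripts and favours smaller ratios. After Ca_12424, the largest rises were in Ca_06787, with 138 in SS-S and 35.8 in SS-C, and Ca_04109, with 160 in SS-S and 43.5 in SS-C. Ca_06787 had 10.4 in ST-S and 22.6 in ST-C, so it was lowered in ST roots, whereas Ca_04109 had 46.5 in ST-S and 32.9 in ST-C. Ca_25595 and XLOC_013218 behaved like Ca_06787. Ca_25595 had 25.7 in SS-S and 8.30 in SS-C, against 16.0 in ST-S and 35.5 in ST-C. XLOC_013218 had 19.6 in SS-S and 5.92 in SS-C, against 3.28 in ST-S and 12.1 in ST-C. In both, ST-C was well above SS-C. Ca_07992, with 23.8 in SS-S and 7.27 in SS-C, was also raised in ST roots, at 16.0 in ST-S and 8.35 in ST-C. Of these 8 largest rises, 2 were raised and 3 lowered in the ST genotype, beside 7.79% raised and 5.63% lowered over all ST loci. The shares over all ST loci cover loci from FPKM 1 up and are not matched in level. In SS roots, 4.44% of all loci were raised and 6.23% lowered, against 1.89% and 2.46% at FPKM of at least 5 in both groups. A minimum in both groups by itself favours loci that differ less, so the lower shares cannot be read on their own. Of all 286 raised loci at this limit that were open to a call in ST, 25.5% were raised and 9.44% lowered there.

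Of the 8 largest falls at this level, 7 were open to a call in ST roots. Of these, 5 were lowered and 0 raised there, beside 5.63% lowered and 7.79% raised over all ST loci. The shares over all ST loci are again not matched in level. Of all 371 lowered SS loci at the same limit that could be called in ST, 18.1% were lowered and 16.7% raised there. XLOC_005902 had FPKM 8.33 in SS-S and 45.4 in SS-C, and 4.17 in ST-S and 22.0 in ST-C. Ca_05908 had 6.49 in SS-S and 33.2 in SS-C, and 3.88 in ST-S and 17.7 in ST-C. The log2 ratios of these loci were close in both genotypes, at -2.45 in SS and -2.40 in ST for XLOC_005902 and at -2.35 in SS and -2.19 in ST for Ca_05908. XLOC_000101 had 20.2 in SS-S and 72.4 in SS-C, and 1.73 in ST-S and 15.7 in ST-C. XLOC_012545, the most abundant of the 8, had 138 in SS-S and 557 in SS-C, and 363 in ST-S and 621 in ST-C. Ca_02358 differed from these. It had 13.6 in SS-S and 74.0 in SS-C, but 17.9 in ST-S and 18.7 in ST-C, so SS-C stood above the other 3 groups.

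Among the transcripts with FPKM of at least 1000, the 13 that passed 1.5-fold are named here after their values were seen. The largest ratios were in XLOC_029284, with 1254 in SS-S and 422 in SS-C, XLOC_020062, with 1055 in SS-S and 390 in SS-C, and Ca_18462, with 1256 in SS-S and 489 in SS-C. Their ST values disagreed with each other. ST-S was below ST-C for XLOC_029284, at 379 against 535, and for Ca_18462, at 499 against 1499, but above it for XLOC_020062, at 2691 against 1436. Ca_14777 was raised to a like degree in both genotypes, with 1147 in SS-S and 639 in SS-C, and 1290 in ST-S and 689 in ST-C. Ca_15742, the most abundant of the 13, had 6460 in SS-S and 3848 in SS-C. Ca_06357, Ca_13637, Ca_08456, Ca_21122 and Ca_15500 were raised by 1.51- to 1.72-fold. Besides XLOC_000008, the lowered loci were Ca_00694, with 1244 in SS-S and 2213 in SS-C, and Ca_02338, with 1220 in SS-S and 1873 in SS-C.

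The largest differences in FPKM itself mostly lay in abundant loci whose ratio stayed under 1.5. Ca_15740 had 18829 in SS-S and 13350 in SS-C, a gain of 5479, and the locus shared by Ca_21944 and Ca_21945 had 22649 in SS-S and 19947 in SS-C. Of the 8 largest gains, 3 passed 1.5-fold, and so did 3 of the 8 largest losses, which included XLOC_000008, listed at 0 in SS-S. Over all loci 10.7% passed 1.5-fold, and 7.18% did at FPKM 1000 or more. Ranking by the difference in FPKM by itself favours loci that changed. FPKM was higher in SS-S at 9125 loci, by 104382 in sum, and lower at 10943 loci, by 64792 in sum. More loci thus had lower FPKM, while the summed gain was larger. Raised loci made up 16.4% of the gain, and lowered loci 23.5% of the loss.

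Loci without a gene name changed more often than named genes. Of 2731 such loci, 242 (8.86%) were raised and 420 (15.4%) lowered, against 638 (3.80%) and 805 (4.80%) of the 16784 loci with 1 gene name. The difference was also seen within classes of level. Between FPKM 20 and 100, 12.6% of the 602 loci without a name and 3.57% of the 5991 loci with 1 name changed either way, beside 4.45% of all loci of that level. Between 100 and 1000 the shares were 12.0% of 166 and 3.33% of 1891. The 553 loci that carry several gene names, whose FPKM cannot be assigned to a single gene, changed at 6.69%. They were more abundant, with a median higher FPKM of 31.3 against 18.6 for loci with 1 name. Within levels they changed at 28% against 25.2% between FPKM 1 and 5, and at 6.55% against 6.58% between 5 and 20. The shares were 5.83% against 3.57% between 20 and 100, and 4.39% against 3.33% between 100 and 1000. At FPKM 1000 or more, 0 of 6 changed, against 6.21% of loci with 1 name. How transcript length, repeats or the assembly of these loci bear on their ratios was not tested.

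**Figure D3:**
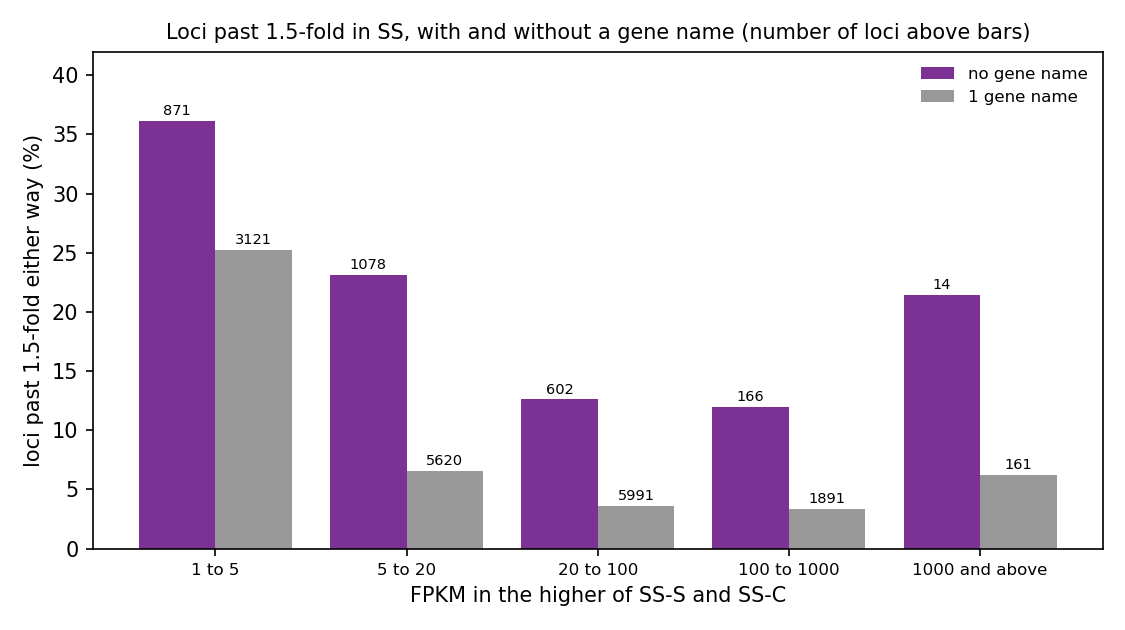
Percentage of loci that passed 1.5-fold either way between SS-S and SS-C, by the higher FPKM of both groups, for loci without a gene name (purple) and with 1 gene name (grey). The number of loci stands above each bar. The share is higher without a gene name in each class, at 12.6% against 3.57% between FPKM 20 and 100.

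The study singles out 17 genes by number, and for part of them it gives a homolog or a protein family, from which a role can be named. All 17 were in the table, at 18 loci, since Ca_20130 is listed at 2. Of the 18 loci, 2 were raised and 9 lowered in SS-S, with a median log2 ratio of -0.54, against 4.44% raised, 6.23% lowered and a median of -0.03 over all loci described here. The study chose these genes on these samples, so their direction is no independent evidence. In the ST genotype 8 of the loci were raised and 5 lowered, with a median of 0.35, beside 7.79% raised and 5.63% lowered of the 20212 loci open to the same call there.

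Several genes on this list are homologs from families linked to iron transport or homeostasis. Ca_25099 is the homolog of FRD3, which in Arabidopsis exports citrate into the xylem and so keeps iron mobile on its way to the shoot. It had FPKM 8.89 in SS-S and 26.5 in SS-C, which is 2.99-fold lower, and 1.39 in ST-S and 10.4 in ST-C. The bHLH transcription factor homologs Ca_07196 and Ca_20616 belong to a family that in Arabidopsis includes regulators of iron uptake. Ca_07196 had 12.8 in SS-S and 23.4 in SS-C, and 7.60 in ST-S and 14.8 in ST-C. Ca_20616 had 4.30 in SS-S and 7.56 in SS-C, and 3.40 in ST-S and 5.97 in ST-C. Ca_25099, Ca_07196 and Ca_20616 were lowered in both genotypes, and each was higher in SS than in ST roots both with and without salt. Ca_02410 encodes another efflux protein of the MATE family, whose homolog the study also links to iron homeostasis. It did not share this pattern. It was lowered in SS roots, with 3.47 in SS-S and 7.34 in SS-C, and raised in ST roots, with 7.43 in ST-S and 3.95 in ST-C.

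The other lowered genes of the list were Ca_09442, Ca_10731, Ca_12433, Ca_13970 and Ca_12185. Ca_09442 is a homolog of WRKY33, a transcription factor of the Arabidopsis defence against fungi that also acts under salt. It had FPKM 21.4 in SS-S and 52.4 in SS-C, which is 2.45-fold lower, but 80.1 in ST-S and 62.6 in ST-C. Ca_10731 is a lipoxygenase homolog, and lipoxygenases oxidise the fatty acids from which jasmonates are made. It had 12.8 in SS-S and 30.1 in SS-C, and was lowered in ST roots too, with 6.73 in ST-S and 11.6 in ST-C. Ca_12433, a homolog of the calcium-dependent nuclease CAN2, had 18.1 in SS-S and 27.8 in SS-C, and 28.9 in ST-S and 25.7 in ST-C. For the WRKY and the nuclease homolog SS-S was the lowest of the 4 groups and the remaining 3 lay nearer to each other. Ca_13970 is a homolog of a transmembrane protein. It was the most abundant lowered gene of the list, with 169 in SS-S and 286 in SS-C. It moved the other way in ST roots, with 286 in ST-S and 141 in ST-C. Ca_12185, for which no role is given, had 8.83 in SS-S and 15.8 in SS-C, and 26.0 in ST-S and 20.6 in ST-C.

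The raised genes of the list were Ca_09586 and Ca_22105. Ca_09586 is a homolog of myo-inositol phosphate synthase, the enzyme of the first step of inositol synthesis, which feeds several osmolytes. It had FPKM 16.6 in SS-S and 8.94 in SS-C, which is 1.86-fold higher, and 10.3 in ST-S and 5.86 in ST-C. Ca_22105 is a homolog of PIRL6, a leucine-rich repeat protein, and had 86.4 in SS-S and 45.8 in SS-C, and 101 in ST-S and 41.0 in ST-C. Both were raised in both genotypes. The 7 loci under 1.5-fold in SS roots included the homologs of a Pht1 phosphate transporter and of a patatin-related phospholipase, an enzyme family linked to auxin responses and lateral roots in Arabidopsis. The transporter homolog Ca_12085 had 143 in SS-S and 115 in SS-C, and the phospholipase homolog Ca_02137 had 12.3 in SS-S and 11.2 in SS-C. In ST roots the transporter homolog was raised and the phospholipase homolog lowered, with 15.3 in ST-S and 35.7 in ST-C. The locus of Ca_18464 also carries Ca_18458, so its 155 in SS-S and 124 in SS-C belong to both genes, as do its 140 in ST-S and 116 in ST-C. The study reports Ca_18464 as raised in SS and lowered in ST roots, which values shared by both genes cannot check. The plot of these genes shows that 9 of 18 loci had SS-S left of SS-C by at least 1.5-fold.

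**Figure D4:**
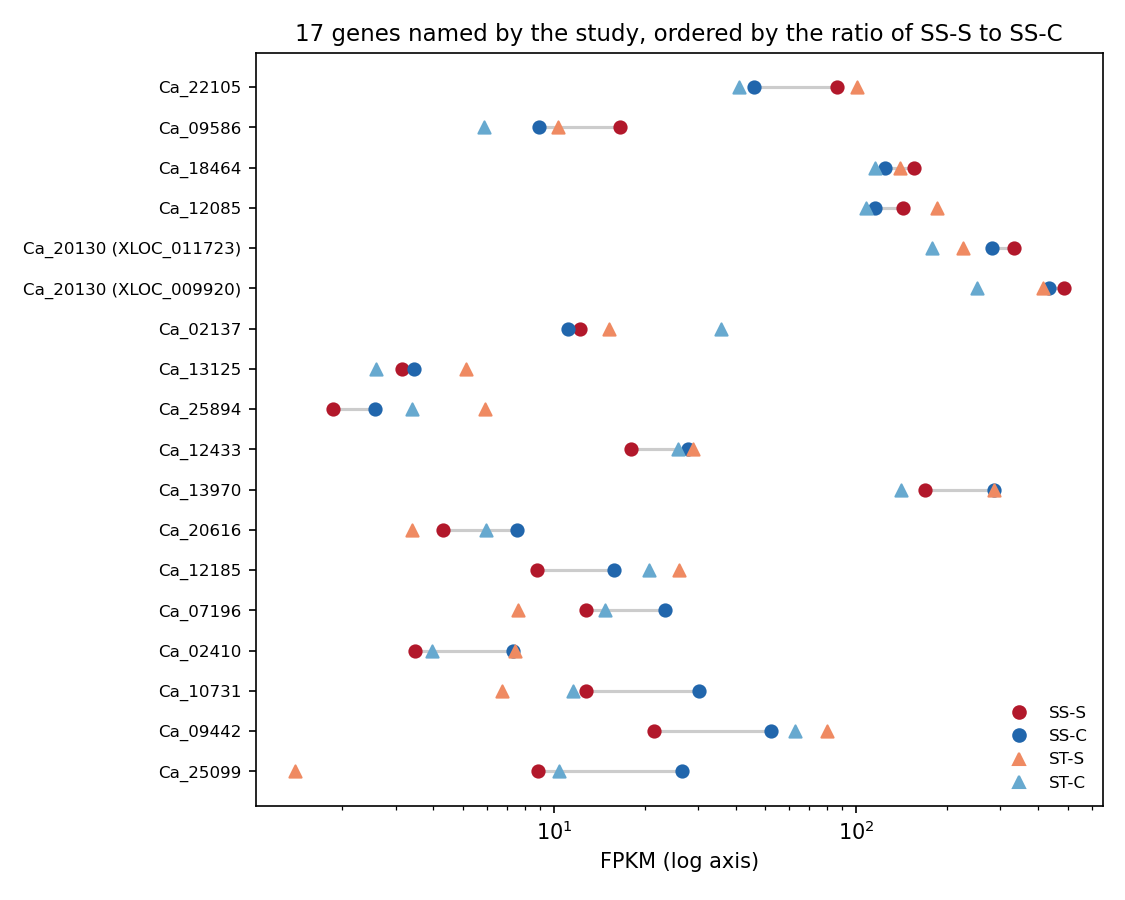
FPKM on a log axis of the 17 genes that the study names, at 18 loci, ordered from the highest to the lowest ratio of SS-S to SS-C. Circles are SS-S (red) and SS-C (blue), joined by a grey line, and triangles are ST-S (orange) and ST-C (light blue). Ca_22105 and Ca_09586 stand at the top with ratios of 1.89 and 1.86, and Ca_25099 stands at the bottom, 2.99-fold lower in SS-S.

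The libraries of the ST genotype are separate from those of SS, so the same loci can be read there. Of the 891 raised SS loci, 811 had FPKM of at least 1 in an ST group, and of these 246 (30.3%) were raised and 101 (12.5%) lowered in ST-S. Of the 1251 lowered SS loci, 1124 were open to a call in ST, with 254 (22.6%) lowered and 197 (17.5%) raised. All 4 shares exceed the 7.79% raised and 5.63% lowered over all ST loci, the shares in the opposite direction included. These sets are not matched in level, and changed SS loci were more often faint, so the excess cannot be read on its own. The median log2 ratio in ST was 0.26 for raised and -0.10 for lowered SS loci, and 0.04 over all. With FPKM of at least 5 in both SS groups, 25.5% of the raised loci were raised and 9.44% lowered in ST, and 18.1% of the lowered loci were lowered and 16.7% raised. Raised calls were the more frequent ones over all ST loci, so the same-way and opposite shares of raised and of lowered SS loci cannot be set against each other directly. Combined columns allow no test of these shares.

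A large ratio between SS-S and SS-C can come from either group. Over all 20068 loci, SS-S alone lay outside the range of the other 3 groups at 42.9%, SS-C alone at 33.1% and both at 10.8%. Raised and lowered loci were chosen for a gap between SS-S and SS-C, which by itself favours both lying outside. Of the 287 raised loci with FPKM of at least 5 in both groups, SS-S alone lay outside at 39.7%, SS-C alone at 24.0% and both, at opposite ends, at 33.4%. Ca_04109 is a raised gene with SS-S apart, at 160 against 32.9 to 46.5 in the other groups. Of the 373 lowered loci, SS-S alone lay outside at 34.6%, SS-C alone at 37.8% and both at 26.0%. Ca_02358 is a lowered gene with SS-C apart, and Ca_09442 one with SS-S apart. Among the lowered loci it was thus about as often the control column as the stressed one that alone lay outside the values of the other groups.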

How the data were processed

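Root RNA of 2 genotypes was sequenced in 4 groups of 2 libraries each, 8 in all, as 49 bp single-end reads. The authors removed adapters and reads under a Phred score of 20, mapped the rest to the Kabuli chickpea genome with TopHat2 2.1.1, assembled transcripts with Cufflinks 2.2.1 and quantified them with Cuffdiff (version 2.2.1 in the labels, 2.1.1 in the paper). The deposited values are FPKM, a single value for each locus in each group, which the authors made from both libraries. The scaling between libraries is not given in the sources used here. The labels give an age of 18 days, and the design text one day less. Of 538 loci above 0 and under FPKM 0.2 in both SS groups, 137 had a ratio of SS-S to SS-C between 1.1 and 1.2, but at most 21 shared a ratio to 3 digits, so whole reads were not recovered. The depth is unknown and no interval is given.

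Ratios are plain FPKM ratios without a pseudocount. A locus was open to a call where the higher group reached FPKM 1 and called at 1.5-fold, the fold limit of the study, whose p-value limit cannot be applied to combined values. The p-values and fold changes of the study's own comparisons were not used. Named loci are, where the higher group reached FPKM 5, the 12 largest rises and 12 largest falls by ratio, and up to 6 listed at 0 each way, then the 8 largest each way at 5 or more in both groups, the 8 largest gains and losses of FPKM, the 10 most abundant in SS-C, the 17 genes the study names, and loci next to the fold limit. Of 28269 gene names, 201 stand on more than 1 locus. The loci and lists were chosen with earlier results of these data known. Alternatives were other FPKM minimums, a 2-fold limit, pseudocounts of 1 and 0.1, scaling by the median ratio or the upper quartile, and loci with 1 gene name. The code that makes the calls was checked on simulated data, which is no test of the calls themselves. Python 3.11.15, numpy 2.4.6, pandas 2.3.3, scipy 1.17.1 and matplotlib 3.10.9 were used.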

Additional observations from a re-analysis of the deposited data

How the results depend on the processing

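No paired analysis was possible because each deposited column combines both libraries of its group, and for the same reason no library could be left out. By the main rule, 2142 of 20068 open loci changed (891 raised, 1251 lowered). The count was 4119 of 23110 (1746 raised, 2373 lowered) without an FPKM minimum. It was 1035 of 16051 (438 raised, 597 lowered) where the higher group reached FPKM 5. Of the same 20068 loci, 1405 changed (574 raised, 831 lowered) on the FPKM + 1 scale and 872 (338 raised, 534 lowered) at 2-fold. With loci of 1 gene name alone, 1443 of 16784 changed (638 raised, 805 lowered). Raised loci made up 41.6% of changed loci, and 38.8% at 2-fold, 44.2% with 1 gene name, 45.0% after scaling to a median ratio of 1 and 45.8% after upper-quartile scaling. Lowered loci remained the larger number under each of these settings. None of the settings could reverse a call, so the unchanged directions are no check of them. Filters, fold limits and pseudocounts keep the sign of a ratio, and scaling moved log2 ratios by at most 0.0298. The median log2 ratio of -0.0245 was -0.0202 at FPKM of at least 5 in both groups and 0.00536 after upper-quartile scaling. Of 92 loci named with a ratio, 16 moved by more than 1.5-fold on the FPKM + 1 scale. Those past 1.5-fold kept their sign, which these settings could not change. Ca_08236, which was under 1.5-fold, had a log2 ratio of -0.0166 that was 0.0078 after median-ratio scaling and 0.013 after upper-quartile scaling. Small folds and loci under FPKM 5 are limited by the unknown depth.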

Other observations

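The most abundant SS root transcripts were largely the same with and without salt. Of the 10 highest loci in SS-C, 9 were also among the 10 highest in SS-S, and 0 of them were raised or lowered at 1.5-fold. Ca_05165 led both groups, with FPKM 27648 in SS-S and 28775 in SS-C, and had 33732 in ST-S and 41673 in ST-C. Ca_13501 had 10232 in SS-S and 9538 in SS-C, Ca_19617 had 8336 in SS-S and 8018 in SS-C, and Ca_00723 had 7918 in SS-S and 7553 in SS-C. Among the 1000 highest loci of each group, 953 were shared, and 25 raised and 20 lowered loci stood among the 1047 in either list. Over all 20068 loci, 4.44% were raised and 6.23% lowered, but those shares are not matched in level to these abundant loci. The 10 highest loci held 9.19% of the summed FPKM in SS-S and 8.65% in SS-C.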
